A study of Mus musculus with 16 samples.

Results

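Iodomethylcholine (IMC), a small molecule that inhibits the choline TMA lyase of gut bacteria, was compared with vehicle in the livers of ethanol-fed mice by bulk RNA sequencing. The comparison took the 8 libraries of the series that were labelled with the ethanol diet, out of 16 in all. Of these, 4 came from mice given vehicle (EtOH control) and 4 from mice given IMC (EtOH IMC). According to the labels and the methods of the study, all were female C57Bl6/J mice of 9 to 11 weeks at the start, kept on a liquid diet for 25 days in which ethanol reached 6% vol/vol. The EtOH IMC mice received 0.06% wt/wt IMC in that diet. The remaining 8 libraries came from pair-fed mice, which received the same diet with ethanol replaced by carbohydrate, 4 with vehicle and 4 with IMC. They enter below only where an effect of IMC is set beside its size without ethanol and in an alternative fit of all 16 libraries. Of 24082 genes in the table, 12251 had a normalised count of at least 10 in at least 4 of the 8 ethanol-fed libraries and were tested.

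Gut bacteria cleave dietary choline to trimethylamine (TMA), which the liver oxidises with flavin monooxygenases. The liver also oxidises choline to betaine, a methyl donor for methionine, and clears ethanol by alcohol dehydrogenases, Cyp2e1 and acetaldehyde dehydrogenases. It makes bile acids, most plasma proteins and a part of the cholesterol of the body. A large group of liver genes follows the sex-specific pattern of growth hormone release through the transcription factor STAT5b. NRF2, ATF4 and p53 are transcription factors that switch on genes against oxidants and electrophiles, amino acid shortage and DNA damage, and SREBP2 switches on sterol synthesis when cell cholesterol is low.

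Several features limited what the comparison could separate. The vehicle libraries carried the numbers 1, 3, 5 and 7 and the IMC libraries 9, 11, 13 and 15, so treatment and library number cannot be told apart. The study reported lower food intake and body weight in mice that received IMC together with ethanol, so an effect of IMC cannot be told apart from one of eating less. The labels name separate samples but not separate cages or litters, so p-values measure only the spread between these mice. In whole liver, fewer cells of a type and less RNA per cell cannot be told apart.

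The 8 libraries held 10600725 to 12601199 reads on genes, and 1 read was worth a normalised count of 0.906 to 1.143. Albumin (Alb) took 6.74 to 9.117% of the reads. Of 10 hepatocyte genes, 1 rose with IMC, which was Hnf4a (0.62 on the log2 scale), or 10% against 10.8% over all genes tested. The summed normalised count of the 10 genes was 1499511 to 1623120.0 in EtOH control and 1341377 to 1702687 in EtOH IMC mice. Of 13 exocrine pancreas genes 10 were at 0 in all 8 libraries and 1 was high enough to test, and of 11 intestine genes 4 were at 0 and 1 could be tested, the glucose transporter gene Slc5a1, which rose by 0.72 (adjusted p = 0.0372). All 13 mitochondrially encoded genes were listed at 0 and were not tested. Slc5a1 did not pass without library 1, 5, 7, 13 or 15 or in 4 of 12 other settings (adjusted p = 0.0566 to 0.106).

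IMC changed 2764 genes at an adjusted p under 0.05, which was 22.6% of those tested. Of these, 1327 (10.8%) rose and 1437 (11.7%) fell. The falls were larger than the rises, with a median log2 fold change of -0.61 among genes that fell and 0.48 among genes that rose, and 291 genes fell and 126 rose by at least 1 on the log2 scale. The median over all genes tested was 0.0025. The 4 IMC mice lay wholly above or below the 4 vehicle mice in 3154 genes, or 25.7% of those tested, and in 2430 of the 2764 that passed. Values are given by mouse below for 60 genes, and their groups did not overlap except in Cdkn1a, Cyp2e1, Cyp7a1, Fgf21, Hamp2, Igfbp1 and Scd1. Fold changes are on the scale of log2(normalised count + 1), which understates the change of low genes.

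**Figure D1:**
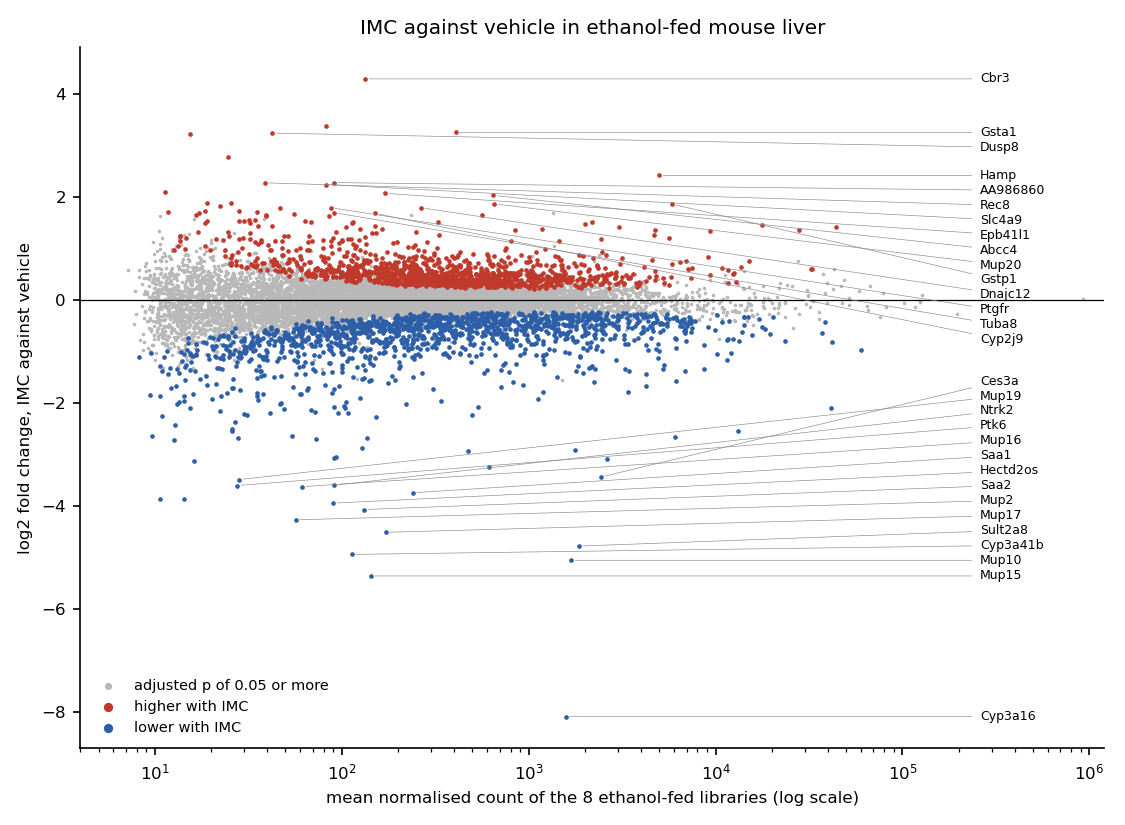
Log2 fold change of IMC against vehicle in ethanol-fed mice (vertical axis) against the mean normalised count of the 8 libraries (horizontal log axis), 1 point for each of 12251 genes. Colored points are the 1327 genes that rose and the 1437 that fell, and the labelled genes are the 15 largest rises and the 15 largest falls among genes with a mean of at least 50 in the higher group.

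The genes with the largest rises included carbonyl reductase, efflux pump and glutathione transferase genes. Cbr3 (ENSMUSG00000022947; GRCm38 chromosome 16, 93683215 to 93690990), a carbonyl reductase that reduces quinones and other reactive carbonyls, had normalised counts of 4.78, 14.9, 15.4 and 13.98 in the 4 EtOH control mice and 241, 137, 366 and 272 in the 4 EtOH IMC mice. The groups were far apart, and the log2 fold change was 4.29 (SE 0.36, adjusted p = 2.91e-05). Its neighbour Cbr1 on the same chromosome (GRCm38 chromosome 16, 93605853 to 93610505), which also reduces carbonyls, rose with little spread between mice, from 1172, 1072, 1109.5 and 1177 to 3059.7, 3004, 3573 and 3389 (log2 fold change 1.52, SE 0.08, adjusted p = 1.55e-06). Abcc4, a pump that exports conjugates and bile acids into blood, stood at 158, 234, 299 and 298 in vehicle mice and 1289, 598, 1489 and 812 in IMC mice (log2 fold change 2.03, adjusted p = 0.000481). Dusp8, a phosphatase of stress-activated kinases, went from 12.4, 8.001, 6.35 and 3.23 to 119, 56.3, 53.1 and 79.8 (log2 fold change 3.24, adjusted p = 0.000165). Rec8, a meiotic cohesin subunit, rose from 10.5, 13.7, 9.97 and 13.98 to 35.1, 54.4, 79.6 and 93.9 (log2 fold change 2.28, adjusted p = 0.000377). In all of these the lowest IMC mouse lay above the highest vehicle mouse. Cbr3, Dusp8 and Rec8 were low in the vehicle mice, so their folds are the least precise of these.

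Falls outside the gene families described further on included Ntrk2 and Ptk6. Ntrk2, the receptor of brain-derived neurotrophic factor, had normalised counts of 122, 167, 264 and 118 in vehicle and 23.1, 7.26, 10.6 and 12.1 in IMC mice (log2 fold change -3.60, SE 0.33, adjusted p = 4.89e-05). Ptk6, a cytosolic tyrosine kinase, fell from 36.4, 56.01, 52.6 and 62.4 to 4.61, 2.72, 2.12 and 4.04 (log2 fold change -3.61, adjusted p = 2.91e-05). Among the 10 smallest p-values, Tlcd2, a membrane protein gene, had 1736, 1902, 1662 and 1784 in vehicle and 441, 564, 439 and 432 in IMC mice (log2 fold change -1.92, SE 0.10, adjusted p = 1.17e-06). Papss2, which makes the sulfate donor of sulfotransferases, fell from 4839, 5431, 4549.6 and 5182 to 1861, 1793, 2268 and 1764 (log2 fold change -1.38, adjusted p = 1.4e-05). The mice of each group were close together in Tlcd2 and Papss2, and the groups were apart.

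The machinery that makes ribosomes rose together. Counts of list members stand beside the shares over all genes, 10.8% higher and 11.7% lower. Of 84 cytosolic ribosomal protein genes tested, 68 rose and 0 fell, with a median log2 fold change of 0.45 against 0.0025 over all genes. Rplp0, a protein of the ribosomal stalk, rose from 3437, 3538, 3233 and 3281 to 5049, 5639.8, 5721 and 6763 (log2 fold change 0.77, SE 0.10, adjusted p = 0.000311). Reads of ribosomal protein genes can be split with their many pseudogenes, so the counts of single members are uncertain. Of 94 rRNA processing factors, 55 rose and 0 fell (median 0.38). Among them Gnl3, the nucleolar GTPase nucleostemin, rose from 269, 264, 242 and 329 to 457, 561, 430.05 and 545 (log2 fold change 0.85, SE 0.12, adjusted p = 0.000623). The box C/D core proteins Nop56 and Nop58, which guide methylation of rRNA, rose by 0.81 and 0.77 (adjusted p = 0.00046 and 0.000478).

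Translation factors and tRNA synthetases rose in part. Of 34 RNA polymerase I and III genes, 6 rose, or 17.6% against 10.8% over all genes, and 1 fell, or 2.94% against 11.7%. Rises and falls together were 20.6% against 22.6%. The rises included the polymerase I subunits Polr1a (0.55, adjusted p = 0.0014) and Polr1d (0.47, adjusted p = 0.00223). Of 51 translation initiation and elongation factors, 18 rose and 2 fell. Eif2s2, a subunit of the initiation factor that brings the first tRNA, rose by 0.51 (adjusted p = 0.00083), while Eif4e3, an atypical cap-binding protein, fell by 1.39 (adjusted p = 0.00307). Of 23 cytosolic tRNA synthetase genes, 13 rose and none fell (median 0.36), with the methionine enzyme Mars highest at 0.67 (adjusted p = 0.00156). Myc, a transcription factor of ribosome and nucleotide synthesis genes, had normalised counts of 15.3, 26.3, 22.7 and 25.8 in vehicle and 58.1, 61.7, 81.8 and 47.5 in IMC mice (log2 fold change 1.43, SE 0.23, adjusted p = 0.00121). Cad, which starts pyrimidine synthesis, went from 161, 151, 192 and 132 to 340.4, 347, 306 and 337 (log2 fold change 1.07, SE 0.12, adjusted p = 0.000143), and groups did not overlap in either gene. Of 31 nucleotide synthesis genes 7 rose and 3 fell. Of the RNA polymerase I and III genes, 2 rose without library 1 and 3 rose without library 5, 11 or 13. Of the translation initiation and elongation factors, 9 rose without library 3 or 7, 11 rose without library 5 and 10 rose without library 13 or 15. Of the nucleotide synthesis genes, 4 rose without library 15.

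Other large protein complexes had smaller shares called, rises and falls together, than the 22.6% over all genes. These shares were 18.2% in the mitochondrial ribosome, 5.75% in the respiratory chain and 5.26% in the proteasome. Of 77 mitochondrial ribosomal protein genes 13 rose, or 16.9% against 10.8% over all genes, and 1 fell, or 1.3% against 11.7% (median 0.09). Of 87 nuclear-encoded genes of the respiratory chain and ATP synthase none rose and 5 fell (median -0.04). Of 38 proteasome subunits none rose and 2 fell, which were the interferon-induced subunits Psmb9 (-0.89, adjusted p = 0.00163) and Psmb8 (-0.44, adjusted p = 0.00641). Of 23 tubulin and actin cytoskeleton genes tested, 7 rose and 1 fell. The rises included the tubulin genes Tuba8 (1.70, adjusted p = 0.00152), Tubb4b (0.88, adjusted p = 0.000826) and Tubb5, which went from 651, 678, 831 and 728 to 1094, 1253, 1246 and 1580.02 (log2 fold change 0.83, adjusted p = 0.000602). Of the mitochondrial ribosomal proteins, 8 rose without library 7. Of the respiratory chain and ATP synthase subunits, 3 fell without library 3, 7 or 13.

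**Figure D2:**
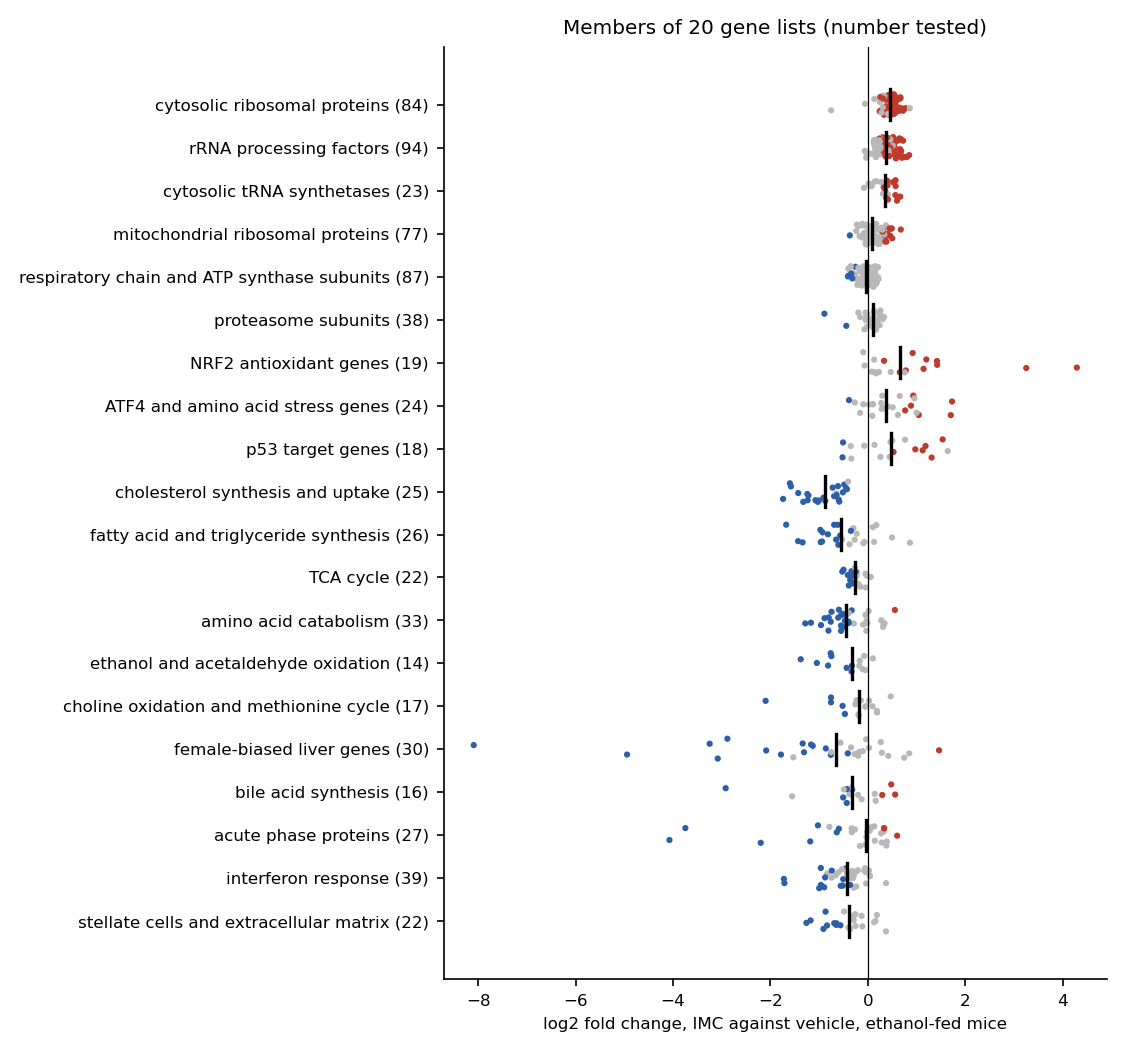
Log2 fold change of IMC against vehicle in ethanol-fed mice (horizontal axis) for every tested member of 20 gene lists (rows), with members that passed an adjusted p of 0.05 in color, the others in grey, and the median of each list as a black bar. The members of the cytosolic ribosomal protein and rRNA processing lists that passed all lie to the right of 0 and those of the cholesterol synthesis list all to the left.

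The CACGTG sequence (E-box), the site that Myc and related factors bind, was searched on both strands in the RefSeq promoter sequences (GRCm38.p6, 250 bases before to 50 after the start) that matched 9854 of the 12251 genes tested. It lay in 17 of 81 promoters of rRNA processing factors (21%), in 5 of 62 of ribosomal proteins (8.06%) and in 4 of 27 of nucleotide synthesis genes (14.8%), beside 10.2% of all matched promoters. A match is a description of the letters, not of a bound site. The stretches around it are shown for the rRNA processing factors Utp18, Nop2, Nmd3 and Nol11, which rose by 0.73, 0.70, 0.40 and 0.36 on the log2 scale, on the strand of the gene and with the motif in capitals. They lie at chr11:93885767-93885811 on the minus strand, chr6:125131798-125131853 on the plus strand, chr3:69721916-69721971 on the plus strand and chr11:107189394-107189449 on the minus strand. Nol11 did not pass with DESeq2 on whole reads and no library 15 (adjusted p = 0.065).
Utp18: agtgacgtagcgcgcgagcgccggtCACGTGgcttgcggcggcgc
Nop2: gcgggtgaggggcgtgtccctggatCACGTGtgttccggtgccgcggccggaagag
Nmd3: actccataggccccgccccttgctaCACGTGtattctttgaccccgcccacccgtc
Nol11: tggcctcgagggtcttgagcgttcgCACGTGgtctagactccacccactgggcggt

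Genes of glutathione synthesis and of the NRF2 program rose. Of 19 NRF2 antioxidant genes tested, 10 rose and none fell (median 0.66). The limiting step of glutathione synthesis is carried by Gclc (GRCm38 chromosome 9, 77754535 to 77794485), which had normalised counts of 3621, 3514, 3706 and 2717 in vehicle and 6969.98, 6649, 10923 and 7116 in IMC mice (log2 fold change 1.20, SE 0.16, adjusted p = 0.000402). Its partner subunit Gclm rose by 0.34 (adjusted p = 0.0179), glutathione synthetase Gss by 0.73 (adjusted p = 0.00116) and glutathione reductase Gsr by 0.78 (adjusted p = 0.000165). Srxn1, which repairs oxidised peroxiredoxins, went from 721, 783, 945 and 1126 to 2028, 1391, 2789 and 1835 (log2 fold change 1.15, adjusted p = 0.00164). Nqo1, a quinone reductase, went from 196, 334, 288 and 381 to 543, 471, 648 and 562 (log2 fold change 0.92, adjusted p = 0.00369), and Ugdh, which makes the glucuronic acid donor, from 1236, 1877, 1749.5 and 1778 to 3846, 5286, 4748 and 3859 (log2 fold change 1.42, adjusted p = 9.1e-05). Genes of the pentose phosphate pathway and other NADPH sources in the list did not pass, with G6pdx at -0.09 (adjusted p = 0.684), Pgd at 0.17 (adjusted p = 0.271) and Me1 at 0.13 (adjusted p = 0.674). Hmox1, the heme oxygenase, was at 0.47 (adjusted p = 0.0568). Gclm did not pass without library 7 or 13 (adjusted p = 0.0529 to 0.0558).

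Glutathione S-transferases, which join glutathione to electrophiles, moved in both directions. Of 22 tested, 8 rose and 4 fell. Some alpha, mu and pi genes are near-identical to another of their class, so reads between such close copies are uncertain. Gsta1 had normalised counts of 19.1, 61.7, 132 and 91.4 in vehicle and 673, 173, 1202 and 913 in IMC mice, in which the lowest IMC mouse lay only a little above the highest vehicle mouse (log2 fold change 3.25, SE 0.61, adjusted p = 0.00329). Gstp1 went from 1768, 2211, 3192 and 2898 to 7997, 6719.7, 11345 and 10437 (log2 fold change 1.86, SE 0.20, adjusted p = 0.000122) and Gstm1, among the most abundant of the mu genes, from 17157, 24446, 22332 and 29966 to 52306, 40839, 82178 and 83232 (log2 fold change 1.43, adjusted p = 0.0018). The falls were in Gstp3 (-1.08, adjusted p = 0.000362), Gstz1 (-0.45, adjusted p = 0.00517), Gstk1 (-0.44, adjusted p = 0.0497) and Gstm7 (-0.36, adjusted p = 0.0406). Gstz1 is an enzyme of tyrosine breakdown and Gstk1 lies in mitochondria and peroxisomes. Of the glutathione S-transferases, 2 fell without library 1, 3, 7 or 13. Gstk1 did not pass without library 1, 3, 7, 9, 13 or 15 or in 4 of 13 other settings (adjusted p = 0.05 to 0.134), nor did Gstm7 without library 1, 3, 7, 11 or 13 or in 2 of 13 other settings (adjusted p = 0.0772 to 0.11).

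**Figure D3:**
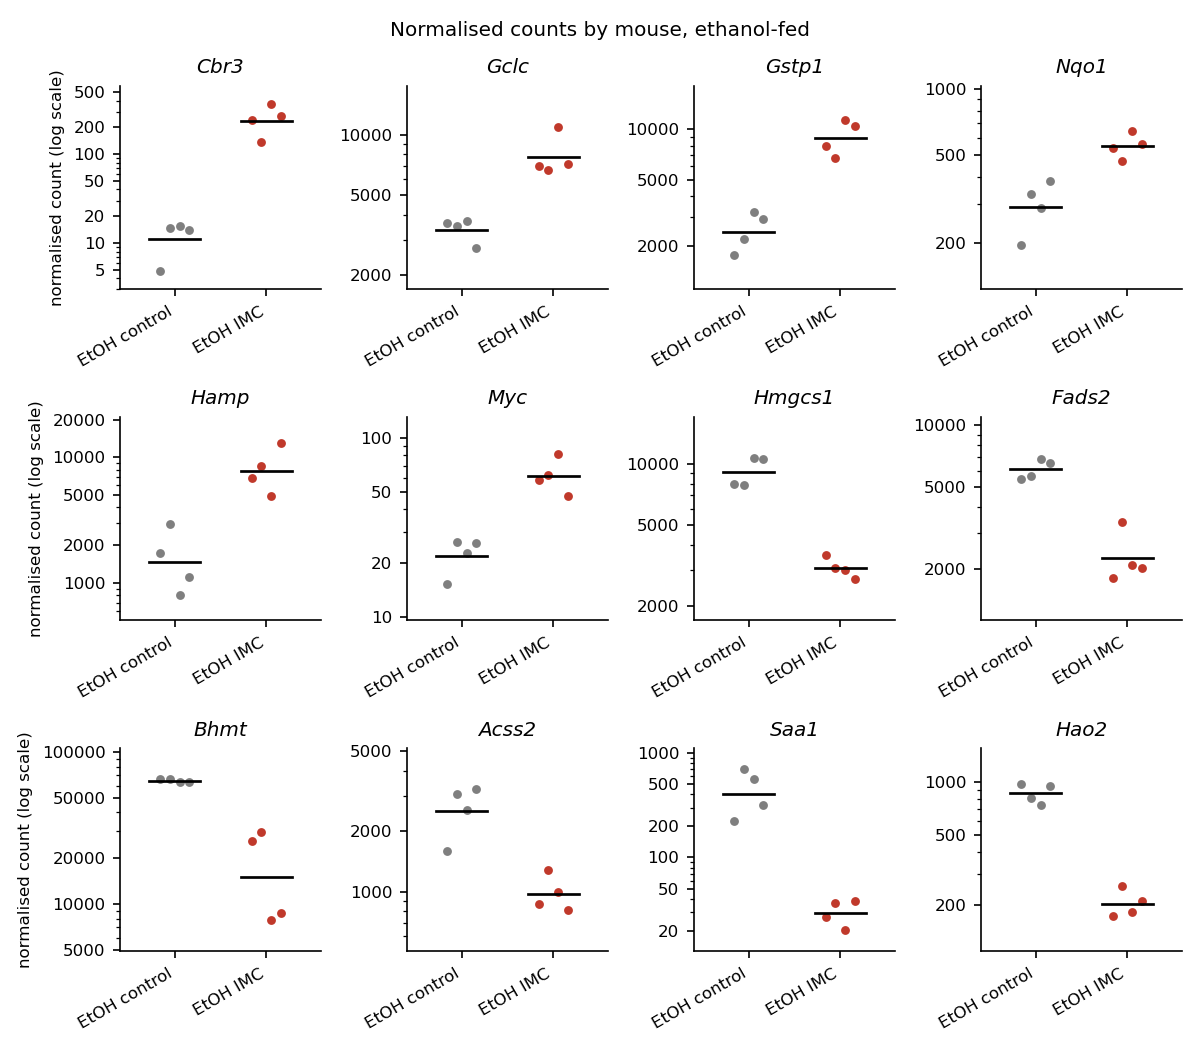
Normalised count (vertical log axis) of 12 genes in each of the 4 EtOH control and 4 EtOH IMC mice (points), with the geometric mean of each group as a bar. Cbr3, Gclc, Gstp1, Nqo1, Hamp and Myc are higher in all 4 IMC mice and Hmgcs1, Fads2, Bhmt, Acss2, Saa1 and Hao2 lower in all 4.

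The core of the antioxidant response element, TGACNNNGC, was found on either strand in 6 of 16 matched promoters of the NRF2 list (37.5%) and in 14.6% of all matched promoters. Since the list holds known NRF2 targets, a larger share in it is not independent evidence. The motif is shown for Ugdh and Gclm, the members of largest rise with the motif ahead of the start, at chr5:65435903-65435961 on the minus strand and chr3:122245398-122245456 on the plus strand. In both the motif, in capitals, lies on the strand opposite to the gene and so appears as its reverse complement. The promoters of G6pdx and Me1, which did not pass, held the motif as well.
Ugdh: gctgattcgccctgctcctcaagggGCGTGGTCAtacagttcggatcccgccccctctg
Gclm: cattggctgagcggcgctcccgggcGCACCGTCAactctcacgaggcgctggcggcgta

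Stress genes of the ATF4 and p53 lists rose in part. Of 24 ATF4 and amino acid stress genes, 6 rose and 1 fell (median 0.37). Asparagine synthetase (Asns) went from 2.87, 9.14, 9.06 and 13.98 to 32.3, 28.1, 21.2 and 32.3 (log2 fold change 1.73, SE 0.39, adjusted p = 0.00832), Fgf21, a hormone of fasting and amino acid shortage, from 31.6, 16.002, 8.16 and 9.68 to 26.8, 58.98, 92.4 and 38.4 (log2 fold change 1.70, SE 0.43, adjusted p = 0.0156), and both genes were low. Slc3a2, the heavy chain of several amino acid transporters, went from 493, 451, 424 and 455 to 753, 833, 738 and 784 (log2 fold change 0.77, adjusted p = 0.000121), and the leucine sensor Sesn2 from 131, 163, 118 and 126 to 184, 306, 282 and 238 (log2 fold change 0.89, adjusted p = 0.00271). Atf4 itself was at 0.30 (adjusted p = 0.0803), Ddit3, which encodes the death factor CHOP, at 0.09 (adjusted p = 0.726) and Trib3 at -0.16 (adjusted p = 0.71), and none of these passed. Shmt2, a mitochondrial enzyme of serine and folate metabolism, fell by 0.39 (adjusted p = 0.017). Of 26 endoplasmic reticulum chaperone genes 6 rose and 1 fell. Shmt2 did not pass without library 3 or 7 (adjusted p = 0.0529 to 0.0534).

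The C/EBP and ATF response element, TGATGNAA, lay in 6 of 21 matched promoters of the ATF4 list (28.6%) and in 2.18% of all. Since the list holds known ATF4 targets, a larger share in it is not independent evidence. The element is a match of letters only. The element is shown in capitals for the genes of largest rise, Asns at chr6:7693210-7693257 on the minus strand and Fgf21 at chr7:45615597-45615654 on the minus strand, where it reads on the opposite strand. The promoters of Trib3 and Atf3, which did not pass, held the element as well.
Asns: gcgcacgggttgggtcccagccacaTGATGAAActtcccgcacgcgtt
Fgf21: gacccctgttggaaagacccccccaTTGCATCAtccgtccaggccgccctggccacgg

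Of 18 p53 target genes tested, 6 rose and 2 fell (median 0.48). Bax, a trigger of cell death at the mitochondrion, went from 198, 149, 174 and 188 to 337, 309, 434 and 492 (log2 fold change 1.13, SE 0.15, adjusted p = 0.000461). Mdm2, the ligase that degrades p53, rose by 0.53 (adjusted p = 0.00152) and Trp53inp1 by 1.19 (adjusted p = 0.0108). The cell cycle inhibitor Cdkn1a had normalised counts of 129, 57.1, 183 and 38.7 in vehicle and 684, 57.2, 315 and 416 in IMC mice. It spread widely between IMC mice and did not pass (log2 fold change 1.64, SE 0.66, adjusted p = 0.0941). The falls were Perp (-0.51, adjusted p = 0.0012) and Sesn1 (-0.52, adjusted p = 0.0227). Of the p53 target genes, 11 rose without library 11. Sesn1 did not pass without library 5, 7, 9 or 15 or with edgeR on whole reads and no library 15 (adjusted p = 0.053 to 0.0688).

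Nearly every gene of cholesterol synthesis and uptake fell. Of 25 tested, none rose and 23 fell, with a median log2 fold change of -0.87. Hmgcs1 (GRCm38 chromosome 13, 119690379 to 119708260), which makes the precursor of mevalonate, had normalised counts of 7941, 7921, 10662 and 10572 in vehicle and 3571, 3072, 2999.7 and 2706 in IMC mice (log2 fold change -1.58, SE 0.13, adjusted p = 2.91e-05). The mevalonate enzymes Mvd (-1.74, adjusted p = 0.000107) and Mvk (-1.43, adjusted p = 0.00032) and the sterol demethylation enzyme Msmo1 (-1.60, adjusted p = 0.000296) fell too. The SREBP2 gene Srebf2 (-0.60, adjusted p = 0.00419) fell as well, and the demethylase Cyp51 (-0.65, adjusted p = 0.0501) did not pass. Genes of cholesterol efflux and esterification were mostly not called, with 1 of 15 higher and 1 lower, and the efflux pump Abca1 was at -0.01 (adjusted p = 0.945).

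The sterol regulatory element TCACNCCAC, searched on both strands and chosen with these results known, lay in 1 of 17 matched promoters of the cholesterol list (5.88%) and in 1.15% of all. This list holds known SREBP2 targets, so its share is not independent evidence either. The promoter that held it was that of Hmgcs1, at chr13:119690189-119690247 on the plus strand, with the element in capitals.
Hmgcs1: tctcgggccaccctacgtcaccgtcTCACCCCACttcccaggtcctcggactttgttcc

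Fatty acid and triglyceride synthesis genes fell as well. Of 26 tested, none rose and 14 fell (median -0.55). The desaturase Fads2, which makes polyunsaturated fatty acids, had normalised counts of 5459.8, 5682, 6846 and 6543 in vehicle and 1809.8, 3405, 2108 and 2023 in IMC mice (log2 fold change -1.43, SE 0.17, adjusted p = 0.000231), and the elongase Elovl5 went from 9874, 6688, 7449 and 5967 to 2801, 3355, 3026 and 2523 (log2 fold change -1.34, adjusted p = 0.000137). Acly, which makes cytosolic acetyl-CoA from citrate, fell by 0.97 (adjusted p = 0.000143), and fatty acid synthase Fasn (-0.62, adjusted p = 0.0194) and the triglyceride enzyme Dgat2 (-0.60, adjusted p = 0.0106) fell as well. Scd1, the main desaturase of saturated fatty acids, was at 102554, 80887, 61505 and 66239 in vehicle and 23909.7, 33629, 65546 and 43089.5 in IMC mice (log2 fold change -0.97, SE 0.27, adjusted p = 0.0249). Of the transcription factors of this pathway, Mlxipl fell by 0.57 (adjusted p = 0.00621) and Srebf1 was at -0.23 (adjusted p = 0.224). Of 18 lipid droplet and lipase genes, 2 rose and 5 fell. Plin2, the coat protein whose level follows stored fat, was at -0.16 (adjusted p = 0.498), Pnpla3 fell by 1.82 (adjusted p = 0.00115) and Hsd17b13 rose by 0.76 (adjusted p = 0.000482). Of the lipid droplet proteins and lipases, 3 fell without library 1. Fasn did not pass without library 7 (adjusted p = 0.059), nor did Scd1 without library 1, 3, 9 or 11 or in 3 of 13 other settings (adjusted p = 0.0503 to 0.101).

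**Figure D4:**
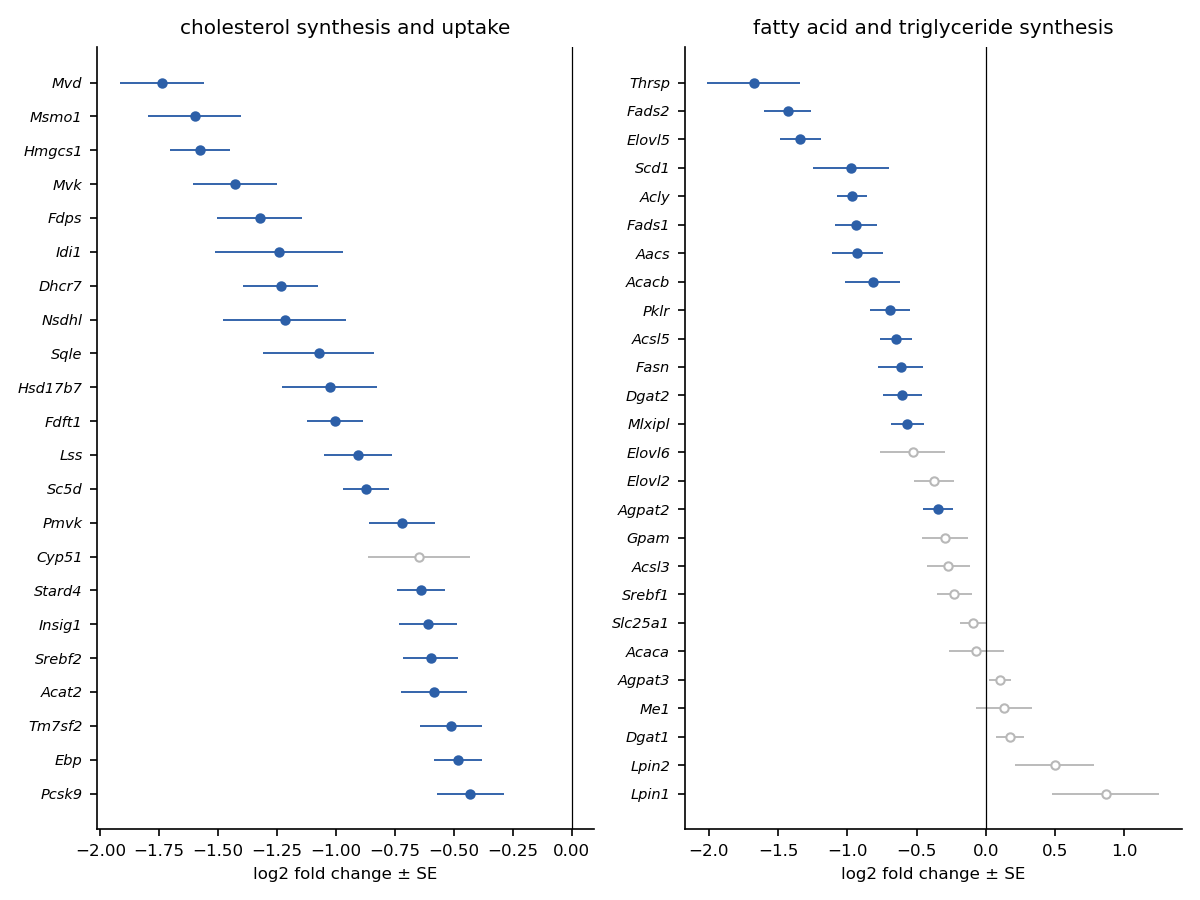
Log2 fold change of IMC against vehicle in ethanol-fed mice (horizontal axis, bars 1 SE) for 22 of the 25 genes of cholesterol synthesis and uptake (left) and 26 of fatty acid and triglyceride synthesis (right), with filled points for genes at an adjusted p under 0.05. The 21 filled cholesterol genes and the 14 filled fatty acid genes all lie to the left of 0.

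Of 36 genes of fatty acid oxidation and ketogenesis, 3 rose and 9 fell (median -0.22). The rises included the hormone gene Fgf21, which is counted in the ATF4 list too. The falls included the ketone body enzyme Bdh1 (-0.69, adjusted p = 0.00576) and the receptor Ppara (-0.50, adjusted p = 0.0196). Of 22 TCA cycle genes none rose and 11 fell, furthest Suclg2, which joins succinate and CoA (-0.52, adjusted p = 0.00183). Of 28 genes of glucose and glycogen metabolism, 1 rose and 7 fell. Pyruvate carboxylase (Pcx, -0.51, adjusted p = 0.00265) and liver pyruvate kinase (Pklr, -0.69, adjusted p = 0.00571) fell, whereas the gluconeogenic enzymes Pck1 (0.51, adjusted p = 0.121) and G6pc (-0.32, adjusted p = 0.493) did not pass. Of the fatty acid oxidation and ketogenesis genes, 5 fell without library 1, 3, 9 or 13, 4 fell without library 5 and 15 fell without library 11. Of the TCA cycle genes, 6 fell without library 3, 7 or 13. Of the glucose and glycogen metabolism genes, 4 fell without library 1 or 11. Ppara did not pass without library 5 or 7 (adjusted p = 0.0523 to 0.0585).

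Genes of ethanol and acetaldehyde oxidation, listed together with those that activate acetate, fell or did not pass. Of 14 tested, none rose and 8 fell (median -0.33). Acss2 and Acss3, which activate acetate and other short acids, had the largest falls, Acss2 from 1595, 3071, 2559 and 3248 to 868, 1276, 999 and 807 (log2 fold change -1.38, SE 0.21, adjusted p = 0.000878) and Acss3 with less of a fall (-1.05, adjusted p = 0.000895). Cyp2e1, the P450 that ethanol induces, had normalised counts of 49949, 51491, 51429 and 56861 in vehicle and 21716, 51029.8, 26536 and 26721 in IMC mice (log2 fold change -0.81, SE 0.22, adjusted p = 0.0211). Aldh2, the main acetaldehyde dehydrogenase, fell by 0.33 (adjusted p = 0.037), and the alcohol dehydrogenase Adh1 was at -0.07 (adjusted p = 0.761) and catalase Cat at -0.17 (adjusted p = 0.307). Of the ethanol and acetaldehyde oxidation genes, 4 fell without library 3, 3 fell without library 7 and 5 fell without library 11, 13 or 15. Cyp2e1 did not pass without library 7, 13 or 15 or in 3 of 13 other settings (adjusted p = 0.0544 to 0.144), nor did Aldh2 without library 1, 3, 7, 11 or 13 or in 2 of 13 other settings (adjusted p = 0.055 to 0.0999).

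Of 5 flavin monooxygenase genes tested 1 rose and none fell, a share of 20% called against 22.6% over all genes. The rise was Fmo5 (0.53, adjusted p = 0.00735), and Fmo1 (-0.25, adjusted p = 0.0688), Fmo2 (0.29, adjusted p = 0.0524) and Fmo4 (0.21, adjusted p = 0.284) did not pass. In the pathway from choline to methionine, 5 of 17 genes fell and none rose. Bhmt, which transfers a methyl group of betaine to homocysteine, had 66229.5, 66049.5, 63572 and 63313 in vehicle and 25775, 29918, 7784 and 8742 in IMC mice. The IMC mice spread more widely than the vehicle mice and all lay below them (log2 fold change -2.10, SE 0.37, adjusted p = 0.00251). Dmgdh and Sardh, which take the next methyl groups, fell as well (log2 fold change -0.75 and -0.75, adjusted p = 0.00266 and 0.000311). Choline dehydrogenase (Chdh, -0.23, adjusted p = 0.0925), Mat1a (-0.19, adjusted p = 0.427) and Pemt, which makes phosphatidylcholine from phosphatidylethanolamine (adjusted p = 0.991), did not pass.

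Genes of amino acid breakdown fell in large part. Of 33 amino acid catabolism genes 1 rose and 20 fell (median -0.45), and of 18 urea cycle and glutamine genes 1 rose and 4 fell (median -0.18). Ornithine aminotransferase (Oat) went from 12172, 16063, 16881 and 18797 to 7728, 8204, 6130.03 and 6276 (log2 fold change -1.17, SE 0.15, adjusted p = 0.000311). Agxt2 (-1.28, adjusted p = 0.000292), the leucine enzyme Ivd (-0.89, adjusted p = 0.00026) and the tyrosine enzyme Hpd (-0.80, adjusted p = 0.00114) fell too. The rise was Sdsl (0.56, adjusted p = 0.0131). The hormone-induced enzymes Tat (0.33, adjusted p = 0.283) and Tdo2 (0.28, adjusted p = 0.316) did not pass. Csad, which makes the taurine precursor, rose from 1559, 994, 1112 and 644 to 2319.9, 2490.1, 3809.9 and 3039.9 (log2 fold change 1.48, SE 0.23, adjusted p = 0.0011). Of the urea cycle and glutamine genes, 2 fell without library 3, 7, 13 or 15.

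Genes that female mouse liver expresses more than male liver fell in large part. Of 30 tested 1 rose and 14 fell (median -0.66), and of 20 male-biased genes 5 rose and 7 fell (median 0.12). Hao2, a peroxisomal hydroxyacid oxidase of female-biased expression, had 982, 813, 742 and 949.7 in vehicle and 173, 256, 182 and 211 in IMC mice (log2 fold change -2.09, SE 0.13, adjusted p = 6.18e-06), and Cyp2b13 went from 5197, 4749, 5857 and 5085 to 1099, 2123, 1398 and 1604 (log2 fold change -1.78, adjusted p = 4.89e-05). The female-biased gene that rose was Cyp2a4, at 1.46 (adjusted p = 0.000524). Of the regulators of sex-biased expression, Cux2, a female-specific repressor, was at 0.42 (adjusted p = 0.142), Stat5b at -0.37 (adjusted p = 0.0647) and Trim24 at 0.03 (adjusted p = 0.887), while Bcl6, a male-biased repressor, fell by 0.92 (adjusted p = 0.0144). Of the male-biased liver genes, 3 rose without library 1 or 7.

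Growth hormone signalling genes fell in part. Of 17 tested 1 rose and 8 fell. The growth hormone receptor Ghr fell from 5671, 5645, 5149 and 6182 to 3442, 3272, 3687 and 3158 (log2 fold change -0.74, SE 0.09, adjusted p = 0.000242). The prolactin receptor Prlr (-0.86, adjusted p = 0.000178) and Igfals (-0.76, adjusted p = 0.000288), which holds IGF-1 in plasma, fell as well. Socs2, an inhibitor of growth hormone signalling, rose from 104, 68.6, 103 and 80.7 to 231, 323, 148 and 258 (log2 fold change 1.38, SE 0.22, adjusted p = 0.00118). Igf1 was at -0.23 (adjusted p = 0.188). Igfbp1, a binding protein that rises in fasting, had 1149.9, 855, 383 and 118 in vehicle and 1008, 5062, 1643 and 576 in IMC mice, a spread too wide to pass (log2 fold change 1.69, SE 0.70, adjusted p = 0.105).

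Several families of related liver genes changed mostly downward, and reads within a family may be split between close copies. Of 11 major urinary protein genes tested 1 rose and 9 fell. Mup15, a member with counts of 185, 446, 270.1 and 219 in vehicle mice, had 10.1, 6.35, 4.25 and 3.03 in IMC mice (log2 fold change -5.36, SE 0.33, adjusted p = 5.26e-06). Of 8 Cyp3a genes 2 rose, Cyp3a25 (0.64, adjusted p = 0.00416) and Cyp3a13 (0.45, adjusted p = 0.0188), and 5 fell (median -1.86). Cyp3a16, a female-biased member, fell furthest, from 1480.00, 4188, 3901 and 2952 to 48.9, 39.9, 5.31 and 0 (log2 fold change -8.09, SE 0.97, adjusted p = 0.000263). Its level in IMC mice was low, so the size of this fall is imprecise. Cyp3a44 (-3.25, adjusted p = 0.00125) and Cyp3a11 (-0.64, adjusted p = 0.0106) fell as well. Of 14 sulfotransferases none rose and 6 fell, among them Sult1b1 from 341, 269, 284 and 259 to 76.6, 129.8, 91.3 and 96.9 (log2 fold change -1.55, adjusted p = 8.43e-05). Of 12 carboxylesterases none rose and 6 fell. Of 15 UDP-glucuronosyltransferases 3 rose, with Ugt2b35 highest at 1.35 (adjusted p = 0.000126), and 6 fell. Of the drug-sensing receptors Nr1i2 (PXR) rose by 0.33 (adjusted p = 0.0147) and Nr1i3 (CAR) fell by 0.37 (adjusted p = 0.0466), and the CAR target Cyp2b10 was at 0.08 (adjusted p = 0.9). Cyp3a13 did not pass in 2 of 13 other settings (adjusted p = 0.0502 to 0.0578), nor did Nr1i3 without library 3, 5, 7, 9, 11 or 13 or in 3 of 13 other settings (adjusted p = 0.0562 to 0.128).

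Bile acid genes changed in both directions. Of 16 bile acid synthesis genes 3 rose and 5 fell. Cyp7a1, the rate-limiting enzyme, had 686, 4612, 1619 and 2187 in vehicle and 1206, 912, 550.04 and 248 in IMC mice and did not pass (log2 fold change -1.55, SE 0.54, adjusted p = 0.0574). The largest fall was that of Cyp8b1, the hydroxylase that directs synthesis toward cholic acid, from 3173, 3352, 3442 and 2388 to 415, 609, 677 and 154 (log2 fold change -2.92, SE 0.36, adjusted p = 0.0003). All IMC mice lay far below the vehicle mice. Akr1d1 (-0.51, adjusted p = 0.00262) and Hsd3b7 (-0.43, adjusted p = 0.00292), which modify the sterol ring, fell too. The rises were Cyp27a1 (0.30, adjusted p = 0.047), Cyp39a1 and Cyp2c70, the latter pair by 0.56 and 0.48 (adjusted p = 0.0233 and 0.0154). Of 20 bile acid and sterol transporters 3 rose and 7 fell. The uptake transporter Slc10a1 (-0.57, adjusted p = 0.0031) and the anion transporter Slc22a7 (-1.96, adjusted p = 0.0021) fell, the bile salt export pump Abcb11 was at -0.13 (adjusted p = 0.329), and Abcc2 rose by 0.50 (adjusted p = 0.0332). Of the regulators, the receptor Nr1h4 (FXR) rose by 0.42 (adjusted p = 0.00596) and its target Nr0b2 (SHP) was at 0.05 (adjusted p = 0.884). Hsd3b7 did not pass after quantile normalization (adjusted p = 0.0586), nor did Cyp27a1 without library 1, 5, 7, 11, 13 or 15 or in 7 of 13 other settings (adjusted p = 0.058 to 0.116). Cyp39a1 did not pass without library 1, 5 or 11 or with no mean-variance trend in the fit (adjusted p = 0.0553 to 0.0679), nor did Abcc2 without library 1, 3, 5, 11 or 13 or in 2 of 13 other settings (adjusted p = 0.0519 to 0.0861).

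Hamp (GRCm38 chromosome 7, 30942368 to 30944032), which encodes hepcidin, the hormone that closes iron export, was among the largest rises. Its normalised counts were 1734, 2931, 809 and 1115 in vehicle and 6871, 8514, 4899 and 13103 in IMC mice (log2 fold change 2.42, SE 0.36, adjusted p = 0.000878). Its close copy Hamp2, with which it may share reads, fell, from 3735, 7465, 1997 and 6168 to 1448, 1325, 2019 and 2176 (log2 fold change -1.34, SE 0.33, adjusted p = 0.0143). Id1, which like Hamp responds to BMP signals, went from 38.3, 43.4, 38.1 and 41.9 to 132, 56.3, 66.9 and 135 (log2 fold change 1.15, adjusted p = 0.00953). The ferritin chains Fth1 and Ftl1 rose by 0.75 and 0.61 (adjusted p = 0.000772 and 0.00686) and the iron exporter Slc40a1 by 0.37 (adjusted p = 0.0124). Bmp6, the ligand that induces hepcidin, was at 0.38 (adjusted p = 0.282) and the transferrin receptor Tfrc at 0.21 (adjusted p = 0.402). Slc40a1 did not pass with all 16 libraries in the fit (adjusted p = 0.068).

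Of 27 acute phase genes tested 7 fell, or 25.9% against 11.7% over all genes, and 3 rose, or 11.1% against 10.8% (median -0.03). The serum amyloid genes fell, Saa1 from 225, 695, 558 and 317 to 26.8, 36.3, 20.2 and 38.4 (log2 fold change -3.75, SE 0.32, adjusted p = 3.04e-05) and Saa2 (-4.07, adjusted p = 6.55e-05), and so did Orm3 (-2.20, adjusted p = 0.0146). Haptoglobin (Hp) rose by 0.60 (adjusted p = 0.00514) and the lipopolysaccharide-binding protein Lbp by 0.34 (adjusted p = 0.0411). Of 24 complement genes 2 rose and 7 fell, C4b furthest at -0.81 (adjusted p = 0.000305), and Mbl2 rose by 0.60 (adjusted p = 0.00511). Of 28 coagulation genes none rose and 8 fell, with F11 at -1.09 (adjusted p = 0.000377). Of 19 cytokine and chemokine genes tested, Icam1 rose (0.58, adjusted p = 0.00636) and Cxcl12 fell (-0.45, adjusted p = 0.00275), or 5.26% each way. Tnf and Il6 were too low to test. Of the complement genes, 4 fell without library 1 or 13 and 3 fell without library 3 or 7. Of the coagulation genes, 5 fell without library 1 or 7 and 4 fell without library 3. Orm3 did not pass with DESeq2 on whole reads and no library 15 (adjusted p = 0.0784), nor did Lbp without library 1, 3, 5, 11, 13 or 15 or in 8 of 13 other settings (adjusted p = 0.0504 to 0.119).

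Interferon and antigen presentation genes fell, as did the leukocyte marker Ptprc. Of 39 interferon response genes none rose and 13 fell (median -0.42). Cxcl9, a chemokine induced by interferon gamma, had normalised counts of 75.6, 226, 117 and 148 in vehicle and 40.6, 36.3, 43.5 and 36.3 in IMC mice (log2 fold change -1.72, SE 0.26, adjusted p = 0.00103), and Gbp7 fell by 0.74 (adjusted p = 0.000602). Of 18 antigen presentation genes none rose and 10 fell (median -0.40), with the class II chain H2-Aa going from 289, 315, 272 and 314 to 157, 105, 138 and 221 (log2 fold change -0.98, adjusted p = 0.00297). The type I interferon genes Isg15 (-0.42, adjusted p = 0.107) and Rsad2 (-0.61, adjusted p = 0.0951) did not pass. In the same libraries the pan-leukocyte marker Ptprc stood at 174, 200.02, 170.4 and 230.2 in vehicle and 125, 92.6, 115 and 120.1 in IMC mice (log2 fold change -0.77, SE 0.13, adjusted p = 0.00214). Ptprc is also in the lymphocyte list and makes up a large part of its sum, so that sum is not a separate measure. The summed normalised count of 17 lymphocyte genes, of which 15 were too low to test, was 275 to 322 in vehicle and 159.7 to 206 in IMC mice. That of the Kupffer cell and macrophage genes was 7679 to 10887 and 5614 to 8904, with 3 of 20 lower (15% against 11.7% over all genes). Their part in the fall of interferon and class II genes was not tested. Of the interferon response genes, 8 fell without library 3 and 7 fell without library 7 or 11.

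Matrix and stellate cell genes fell in part. Of 22 tested none rose and 9 fell (median -0.38). Reln, a secreted protein that stellate cells make, went from 1042, 1034, 1194 and 809.9 to 530.4, 466, 307 and 415 (log2 fold change -1.26, SE 0.16, adjusted p = 0.000362), and Ecm1 from 1702, 1839, 1599.9 and 1444 to 788, 725, 532 and 916 (log2 fold change -1.17, adjusted p = 0.000296). The fibrillar collagens Col1a2 and Col3a1 fell too (log2 fold change -0.91 and -0.87, adjusted p = 0.0021 and 0.00941), and Col1a1 was at -0.49 (adjusted p = 0.152). The marker of activated stellate cells Acta2 was at 0.16 (adjusted p = 0.867), desmin Des at 0.37 (adjusted p = 0.425) and decorin Dcn at -0.26 (adjusted p = 0.0955), and the summed count of the list was 30449 to 36233 in vehicle and 25509 to 27813 in IMC mice. Of 18 sinusoidal endothelial genes 2 rose, including Bmp2 (0.63, adjusted p = 0.00534), and none fell. The share that rose, 11.1%, was near the 10.8% over all genes. Of 4 red cell genes tested Alas2 fell (-0.87, adjusted p = 0.00866). Of 10 bile duct genes Prom1 fell (-1.11, adjusted p = 0.0016), a share of 10% lower against 11.7% over all genes. Car3 of the adipocyte list, which hepatocytes also express, fell from 23353, 23046, 21282 and 21179 to 2729.5, 6246, 3224 and 3793 (log2 fold change -2.55, adjusted p = 2.56e-05), while the adipocyte genes Adipoq and Plin1 were too low to test.

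Some proliferation genes fell, from low levels. Of 28 cell cycle and DNA replication genes 2 rose and 7 fell. Mki67, a marker of cycling cells, had 78.4, 48.01, 174 and 47.3 in vehicle and 25.8, 24.5, 23.4 and 17.2 in IMC mice (log2 fold change -1.69, SE 0.35, adjusted p = 0.00587), and Top2a went from 44.96, 24.003, 137 and 33.3 to 16.6, 11.8, 23.4 and 16.2 (log2 fold change -1.46, SE 0.44, adjusted p = 0.0326). Of the replication genes, Mcm7 rose (0.35, adjusted p = 0.0273), and Mcm2 (-0.10, adjusted p = 0.801) and Pcna (0.14, adjusted p = 0.303) did not pass. Zonal genes were mixed, with 1 of 17 pericentral genes higher and 5 lower, and 3 of 16 periportal genes higher and 5 lower. Of 20 circadian clock genes, Per1 rose (0.88, adjusted p = 0.007) and 3 fell, among them Hlf and, furthest, Bhlhe40 (-0.80, adjusted p = 0.0334). The clock shares were 5% higher and 15% lower, against 10.8% and 11.7% over all genes. Of the cell cycle and DNA replication genes, 4 fell without library 1, 7 or 9 and 3 fell without library 5 or 15. Of the pericentral hepatocyte genes, 3 fell without library 7, 13 or 15. Of the periportal hepatocyte genes, 3 fell without library 3. Mki67 did not pass with all 16 libraries in the fit (adjusted p = 0.0551), nor did Top2a without library 1, 5, 9, 11 or 15 or in 4 of 12 other settings (adjusted p = 0.0502 to 0.153). Mcm7 did not pass without library 3, 5, 7, 13 or 15 or in 2 of 13 other settings (adjusted p = 0.0515 to 0.0975), nor did Bhlhe40 without library 1, 3, 7, 9, 11 or 15 or in 4 of 13 other settings (adjusted p = 0.0547 to 0.209).

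In pair-fed mice IMC changed 1174 of the same 12251 genes (9.58%) in a fit of all 16 libraries, which called 2700 in ethanol-fed mice. The genes were chosen by their counts in the ethanol-fed libraries, so genes high only in pair-fed mice were left out. The effect of IMC differed between the diets in 137 genes (1.12%), of which 108 had also passed in the fit of the 8 ethanol-fed libraries. The difference was higher with ethanol in 40 and lower in 97. The count was 66, 65, 54 and 60 without vehicle libraries 1, 3, 5 and 7, 74 and 73 without IMC libraries 13 and 15, 59 and 86 without pair-fed vehicle libraries 12 and 14, and 71, 68 and 70 without pair-fed IMC libraries 2, 6 and 8. DESeq2 on whole reads called 343 genes. Among pair-fed libraries the IMC mice carried the low and the vehicle mice the high numbers, the reverse of the ethanol-fed mice, so a difference between diets cannot be told apart from one of library number. Nor can it be told apart from the lower food intake that the study reported under IMC together with ethanol. For Cbr3 the log2 fold change was -0.51 in pair-fed mice, a difference of 4.80 (SE 0.51, adjusted p = 0.000352). Its pair-fed counts were 10.4, 12.8, 8.81 and 5.70 with vehicle and 4.77, 6.39, 9.37 and 4.71 with IMC, so the groups overlapped there. For Hamp the pair-fed change was -0.89 and the difference 3.31 (SE 0.66, adjusted p = 0.0223), and for Socs2 -0.58 and 1.96 (SE 0.38, adjusted p = 0.0188). Bax (difference 0.93, adjusted p = 0.0395) and Id1 (difference 2.15, adjusted p = 0.0473) had the same direction. Hamp did not pass for the difference without library 5, 7, 15 or 12 (adjusted p = 0.0514 to 0.0569), nor did Bax in 12 of 16 fits with 1 library left out (adjusted p = 0.0527 to 0.0861). Id1 did not pass for the difference in 12 of 16 fits with 1 library left out or with edgeR on whole reads (adjusted p = 0.0514 to 0.0989).

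Scd1 and Fabp5 went in opposite directions in the 2 diets, and in pair-fed mice the vehicle and IMC groups overlapped in both genes. Scd1 fell with IMC in ethanol-fed mice and rose in pair-fed mice, from 101679, 120212, 156715 and 99049.6 to 121955, 269182, 317413 and 352866 (log2 fold change 1.07, adjusted p = 0.0469), a difference of -2.04 (SE 0.46, adjusted p = 0.0421). Fabp5, a fatty acid binding protein, did the same, with ethanol-fed counts of 159.8, 187, 157 and 177 and 51.7, 53.5, 57.3 and 78.7 (log2 fold change -1.499, adjusted p = 8.07e-05) and pair-fed counts of 334, 515, 351 and 1243 and 1188, 862, 1099.7 and 3257 (log2 fold change 1.40, adjusted p = 0.0249), a difference of -2.90 (adjusted p = 0.0137). The difference also passed for Elovl5 (-1.43, adjusted p = 0.00959), Pklr (-1.11, adjusted p = 0.0137) and Acly (-1.13, adjusted p = 0.049). A negative difference does not by itself show a rise in pair-fed mice, and the pair-fed changes of Elovl5, Pklr and Acly are not given here. In cholesterol synthesis none of the 25 genes differed between the diets at that threshold, and the pair-fed changes of Hmgcs1 (-1.14, adjusted p = 0.0128) and Mvd (-1.47, adjusted p = 0.00502) also passed. A difference that misses the threshold does not show that the effects were equal. Scd1 did not pass for the difference in 13 of 16 fits with 1 library left out (adjusted p = 0.0558 to 0.0898), nor did Acly in 13 of 16 fits with 1 library left out or after quantile normalization (adjusted p = 0.0503 to 0.104).

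Further genes fell in ethanol-fed mice more than in pair-fed mice. Cyp2f2, a periportal P450, had ethanol-fed counts of 8998, 11958, 8446 and 10256 with vehicle and 3315, 4790.5, 3492 and 3633 with IMC (log2 fold change -1.38, adjusted p = 8.08e-05), was at 0.11 in pair-fed mice and differed by -1.49 (SE 0.17, adjusted p = 0.000445). The matrix genes Reln and Ecm1 were at 0.03 and -0.07 in pair-fed mice and differed by -1.29 and -1.10 (adjusted p = 0.0137 and 0.0198). Hao2 differed by -1.06 (adjusted p = 0.0386), Prlr by -0.70 (adjusted p = 0.0395) and Dmgdh by -0.91 (adjusted p = 0.0421), and Tlcd2 by -1.45 (adjusted p = 0.0137). Hao2 did not pass for the difference in 12 of 16 fits with 1 library left out (adjusted p = 0.0527 to 0.0822), nor did Prlr in 11 of 16 fits with 1 library left out (adjusted p = 0.0545 to 0.083). Dmgdh did not pass for the difference in 13 of 16 fits with 1 library left out or after quantile normalization (adjusted p = 0.0509 to 0.0923).

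**Figure D5:**
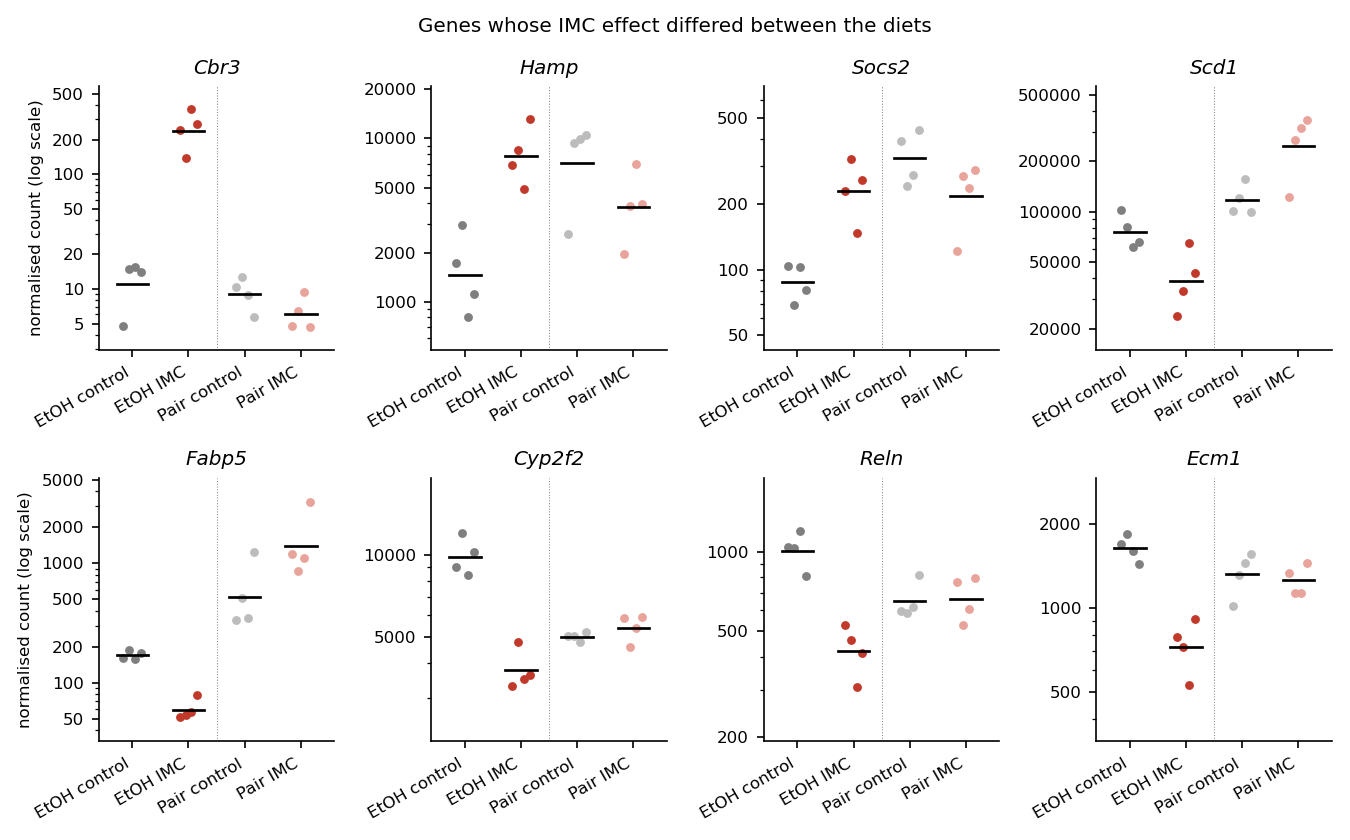
Normalised count (vertical log axis) of 8 genes in the 4 mice of each of the 4 groups (points), ethanol-fed on the left and pair-fed on the right of each panel, with the geometric mean as a bar. Vehicle and IMC are compared within a diet. Cbr3, Hamp and Socs2 are higher with IMC in the ethanol-fed mice and not in the pair-fed mice. Scd1 and Fabp5 are lower with IMC in ethanol-fed mice and higher on average in pair-fed mice, where their groups overlap. Each of these genes has an adjusted p of the difference under 0.05.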

How the data were processed

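Liver RNA of 16 mice was sequenced from directional Illumina TruSeq libraries. The 8 ethanol-fed mice gave the main comparison, and the pair-fed mice entered the comparison of diets and an alternative fit of all 16 libraries. The labels describe paired-end reads of 100 bases and the methods single-end reads. The submitters' processing notes name Trim Galore, FastQC, STAR, edgeR and the mm10 build, and the counting tool is not given in the sources used here. The table deposited by the authors holds counts divided by size factors (a signal, not raw counts). Whole reads were recovered from the value of 1 read in each library, with 100% of values within 0.01 of a whole number. No pair of libraries of a group agreed within sampling noise. Reads per library (10600725 to 12601199) set the counting error, and mice of a group differed by more than that (chi-square per gene 5.64 to 34.9).

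The main test was limma with a mean-variance trend on log2(normalised count + 1), in R 4.3.3 with limma 3.58.1, with Benjamini-Hochberg adjustment over 12251 genes and a threshold of 0.05. Differences between diets came from an interaction term over 16 libraries. Tests on whole reads with edgeR 4.0.16, which called 2767 genes, and DESeq2 1.42.0 were alternatives, and those without library 15, where 1 read was worth close to 1, were chosen after seeing the data. Plots were made with Python 3.11.15 and matplotlib 3.10.9, and the scripts were tested on simulated data. Positions are from GENCODE vM21 (GRCm38) and promoters from RefSeq (GRCm38.p6).

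The members and gene lists were chosen with earlier results of these data known, and some genes stand in several lists. Genes named were the 15 largest rises and 15 largest falls with a mean of at least 50 in the higher group and no overlap, the 10 smallest p-values, and of each list the first 4 members tested and up to 4 rises and 4 falls. Chosen outside this rule, with their values seen, were Atf4, Bmp6, Cat, Cyp51, Dcn, Des, Dgat2, G6pdx, Gbp7, Gsr, Igfbp1, Mat1a, Mcm2, Me1, Mlxipl, Nmd3, Nol11, Nop2, Pcna, Pcx, Pgd, Rsad2, Sesn2, Slc3a2, Slc40a1, Srebf1, Srebf2, Srxn1, Stat5b, Tdo2, Tfrc and Trim24. A few genes that the rule selects are not reported here.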

Additional observations from a re-analysis of the deposited data

Results flagged for a closer look

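Of 120 groups of 4 mice whose values are given by mouse, 4 held a mouse far from the others, and about 1 in 20 groups would by chance. Cbr3 was 4.78 in EtOH control library 1, against 13.98 to 15.4 in the other vehicle mice. Library 11 of EtOH IMC stood out in Cyp2e1 (51030, others 21716 to 26721) and in Tlcd2 (564, others 432 to 441). Gclc was 10923 in EtOH IMC library 13, against 6649 to 7116 in the others.

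The effect of IMC differed between ethanol-fed and pair-fed mice, by the interaction test in limma, in 17 of the genes named. The difference (ethanol-fed minus pair-fed, log2 scale) was positive for Cbr3 (4.80), Hamp (3.31), Id1 (2.15), Socs2 (1.96) and Bax (0.93). It was negative for Fabp5 (-2.90), Scd1 (-2.04), Cyp2f2 (-1.49), Tlcd2 (-1.45), Elovl5 (-1.43), Reln (-1.29), Acly (-1.13), Pklr (-1.11), Ecm1 (-1.10), Hao2 (-1.06), Dmgdh (-0.91) and Prlr (-0.70). Diet, library number and the lower food intake under IMC with ethanol cannot be told apart in this difference.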

How the results depend on the processing

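The count of genes that changed with IMC in ethanol-fed mice was 2347 to 2887 over 13 other settings and 1990 to 2648 with 1 library left out, all within 1.5 times of 2764. Of 151 named genes that passed, 19 lost the call at least once when 1 library was left out and 21 in another setting, and none changed direction. Upper-quartile rescaling moved the share of higher calls from 48 to 42.9%. Of 45 counts of list members, 2 to 13 moved by over 1.5 times with 1 library left out and 0 to 6 in another setting, among them moves without the mean-variance trend (translation factors 18 to 11, ethanol oxidation 8 to 5, complement 7 to 3), after quantile normalization (glucose metabolism 7 to 3, coagulation 8 to 4, bile acid synthesis 5 to 3) and with a mean of at least 100, where fewer genes were tested (major urinary proteins 9 to 4, interferon response 13 to 7, cell cycle 7 to 2, nucleotide synthesis 7 to 3, ATF4 list 6 to 3). In edgeR without library 15 translation factors went from 18 to 8, ethanol oxidation from 8 to 5 and cell cycle from 7 to 4. The urea cycle and glutamine count of 4 went to 7 with DESeq2 on whole reads, and to 2 without the trend, with no filter, after quantile normalization and in edgeR without library 15. The count of genes whose effect differed between the diets depended on the fit. It was 137, and 343 with DESeq2 on whole reads, and 54 to 171 with 1 library left out, where the cause was not tested. Of the 17 named differences, 8 were lost at least once with 1 library left out, and none changed direction. No paired analysis was possible because the groups share no library number. Depth limits the precision of the low genes, and with 4 mice in a group small changes may have been missed.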
